A study of Mus musculus with 3 samples.

Results

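Non-arterial endothelial cells of the mouse embryo at embryonic day 9.5 (E9.5) were the cells that passed an endothelial gate and did not pass an arterial rule. The gate asked for at least 3 summed counts of Pecam1, Cdh5, Kdr, Emcn, Cldn5 and Etv2, with at least 2 of these 6 genes present. The arterial rule asked for at least 2 summed counts of Gja4, Gja5 and Dll4, with at least 2 of these 3 present. Of 7164 cells with at least 10 counts in both E9.5 sections, 288 were non-arterial gated cells, 82 were arterial-type gated cells and 6794 were not gated. The whole series held 203079 such cells in 3 sections.

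The study imaged sections of whole wild-type mouse embryos by MERFISH, which detects single RNA molecules in place through rounds of barcoded probes, on the Vizgen MERSCOPE instrument. The groups were E15.5 with 1 section and E9.5 with 2 sections, all from embryos labelled wild type, with no treatment named. By the titles, section 1 is imaging region 0 and section 2 region 1 at E9.5, and the E15.5 section is region 0. The panel gave counts for 296 genes and 19 blank codes that match no RNA. No label says whether the 2 E9.5 sections came from separate embryos. The spread behind a p-value here is thus only that between these sections, and it may be technical.

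Endothelial cells line the vessels and the heart, and at this stage they arise from mesoderm under the ETS-family factor Etv2. VEGF acts through the receptor Kdr to guide their growth, and Notch signalling through Dll4 marks cells on the arterial path. Venous identity is tied to the nuclear receptor Nr2f2, the co-receptor Nrp2 and the ephrin receptor Ephb4, and the endocardium is the endothelium that lines the heart.

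The 2 E9.5 sections were very unequal. Section 1 held 12 non-arterial gated cells of 830 kept cells (1.45%, exact 95% interval 0.749 to 2.51%), and section 2 held 276 of 6334 (4.36%, 3.87 to 4.89%). In the E15.5 section the same rule found 10870 of 195915 cells (5.55%, 5.45 to 5.65%). All intervals on shares and ratios here cover counting error only, since cells of 1 section are not replicates. Kept cells had a median of 61 counts in section 1, 128 in section 2 and 84 at E15.5, and no cell identifier was shared between sections. The same limits applied to the 6 blank codes with the highest counts let through 3 cells in section 1, 40 in section 2 and 513 at E15.5.

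Non-arterial gated cells of section 2 had a median of 223 counts and a volume of 1000 in the files' unit, against 122 counts and 728 for non-gated cells. In section 1 the medians were 126 counts and 1055 for non-arterial gated cells, against 60 counts and 709 for non-gated cells. A larger or deeper cell passes a count limit more easily, so depth moves with the rule in both sections. The alternatives that bear on it thinned every cell to 50 counts, kept cells with at least 20 counts, or left out large cells.

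The counts that chose the cells are a description. Cldn5, a tight-junction protein, gave 1179 of the gate counts in section 2, Cdh5 (VE-cadherin, the endothelial adherens-junction protein) 690, Kdr (the main VEGF receptor) 409, Pecam1 (a junctional adhesion molecule) 350, Emcn (endomucin, a surface sialomucin) 197 and Etv2 147. Of the 276 cells, 127 had just 2 of the 6 genes and 31 had 5 or more. In section 1, 53 of 79 gate counts were Cldn5, 24 of them in 1 cell, and 10 of the 12 cells had just 2 of the genes. Gja4, Gja5 and Dll4 were not all absent from non-arterial cells: 177 of 276 cells in section 2 had 0 counts of these arterial genes, 62 had 1, and 37 had 2 or more of a single gene.

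The endothelial label was checked by leaving each gate gene out in turn and gating on the other 5. The arterial rule was not applied here, so these gated cells include arterial-type cells, which add to the ratios. In section 2, cells gated in this way had 27.9 times the Cdh5 share of non-gated cells (24.8 to 31.5), 20.8 times the Pecam1 share (17.8 to 24.4) and 14.5 times the Kdr share (12.7 to 16.5). Cldn5 was 5.48 times higher (5.02 to 5.98), Etv2 4.07 times (3.15 to 5.22) and Emcn 3.07 times (2.55 to 3.67). In section 1 the held-out counts were 3 for Pecam1, 3 for Cdh5, 2 for Kdr, 1 for Emcn and 0 for Etv2. The 24 held-out Cldn5 counts lay in a single cell. The endothelial label could thus be checked in section 2 for gated cells as a whole, not for the non-arterial part alone. In section 1 it could hardly be checked, and every test below draws on the 12 non-arterial gated cells there.

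The venous markers Nr2f2 and Nrp2 were not called against the rest of the embryo. Nr2f2 had 1 count in section 1 and 224 counts (3206 CPM) in section 2 in non-arterial gated cells, against 63 and 2608 counts (2791 CPM) in non-gated cells. CPM is the count scaled to a common total over the 287 genes outside the rule. The section 2 ratio was 1.15 (0.998 to 1.32), with an adjusted p of 0.922 (edgeR). Nrp2 had 2 and 122 counts in non-arterial gated cells, against 66 and 1563 in non-gated cells, with a section 2 ratio of 1.04 (0.861 to 1.26) and an adjusted p of 0.958. Both genes were widely present outside the gate: after thinning to 50 counts, Nr2f2 was found in 12.5% of non-arterial gated cells and 11.8% of non-gated cells of section 2, and Nrp2 in 4.53% and 6.03%.

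Several genes that the rule did not use followed the strength of the gate. The genes shown are the 5 with the largest change among those called below and above non-gated cells in each section, with Nr2f2 and Nrp2 beside them. In section 2, Clec14a, an endothelial surface lectin-like protein, stood at 9129 CPM in the 88 non-arterial cells with 10 or more gate counts and 2630 CPM in the 113 cells with 4 to 9. It stood at 807 CPM in the 75 cells that just met the limit of 3, against 596 CPM in the 408 non-gated cells with 2 gate counts and 443 CPM in the 4096 with 0. Cells at the limit were thus close to the cells just outside it.

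Aplnr, the receptor for apelin and Elabela and a marker of venous and sprouting endothelium, also stood higher with more gate counts, but not across the limit. It stood at 21369 CPM with 10 or more gate counts, 5665 CPM with 4 to 9 and 1187 CPM with 3, against 1281 CPM in non-gated cells with 2 and 1052 CPM with 0. Notch4, an endothelial Notch receptor, had 8423, 3197 and 712 CPM in these classes of non-arterial cells, against 1090 CPM in non-gated cells with 2 gate counts. Nr2f2 followed no such order, with 4149, 2590 and 2849 CPM in the same classes of non-arterial cells, against 2180, 2674 and 2983 CPM in non-gated cells with 2, 1 and 0 gate counts. Nrp2 stood higher with more gate counts among non-arterial cells, at 2241, 1902 and 997 CPM, but not across the limit. Non-gated cells had 1798, 1684 and 1677 CPM of Nrp2 with 2, 1 and 0 gate counts.

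At E15.5, a section that did not choose these genes, Clec14a was at 3652 CPM in the 2461 non-arterial cells with 10 or more gate counts and 898 CPM in the 3090 cells with 3, against 591 CPM in non-gated cells with 2. Aplnr was at 14420 CPM and 1823 CPM in these classes of non-arterial cells, against 857 CPM in non-gated cells with 2. Clec14a and Aplnr thus stood higher with more gate counts in the later embryo too. Pcdh17 did not across the limit, with 4453 CPM at 10 or more gate counts and 2200 CPM at 3, against 2492 CPM in non-gated cells with 2 and 2957 CPM with 0, and Nr2f2 lay between 1350 and 1482 CPM in all 3 classes of non-arterial cells. Nrp2 was at 6779 CPM at 10 or more gate counts, 4547 CPM at 4 to 9 and 3796 CPM at 3. In non-gated cells Nrp2 was at 4109 CPM with 2 gate counts and 4247 CPM with 0.

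**Figure D1:**
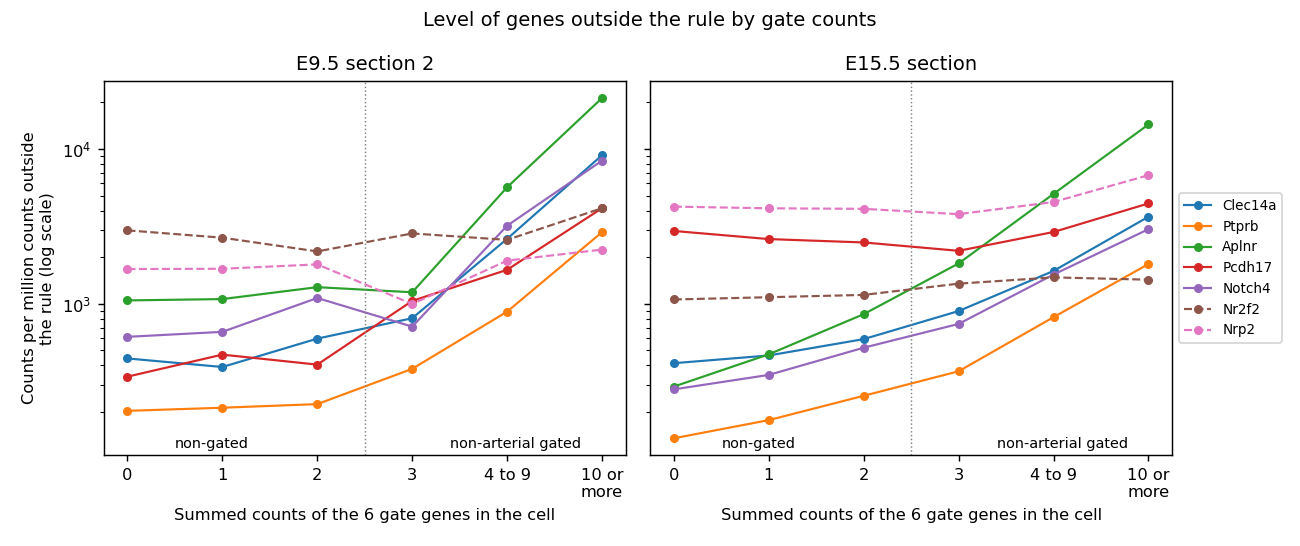
Level of 7 genes outside the rule (CPM, log axis) in cells grouped by their summed counts of the 6 gate genes, in E9.5 section 2 and the E15.5 section; a dotted line parts non-gated from non-arterial gated cells, and each point is the sum over all cells of a class. Clec14a reaches 9129 CPM in section 2 cells with 10 or more gate counts, against 807 CPM at 3 counts. Levels of different genes are not compared.

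The comparison with all non-gated cells asked which panel genes differ between non-arterial gated cells and cells outside the gate. Arterial-type cells were in neither group, so a gene called here need not be higher in non-arterial than in arterial-type cells. In section 2, Notch4 had a ratio of 0.292 over arterial-type cells and Aplnr 2.21. Counts were summed per section and group, so that each section is 1 pair, and the 9 rule genes were left out. Of 286 genes tested, 17 were higher (5.94%) and 4 lower (1.40%) at an adjusted p below 0.05, in edgeR's quasi-likelihood test with the section as a block and Benjamini-Hochberg adjustment. Without adjustment 41 genes had p below 0.05. The fit had 1 residual degree of freedom, so its p-values lean on dispersions that edgeR shares across the genes tested. With the section as a block, the spread left is that of the group difference between sections. The calls did not survive 2 changes of method: DESeq2 called 0 genes, with 13 below an unadjusted p of 0.05, and the fit with no replicate block called 0, with 15 below it. All 21 genes kept their direction in both.

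Clec14a had 1 count in section 1 and 302 counts in section 2 in non-arterial gated cells, against 21 and 462 counts in non-gated cells. As levels these were 579 and 4322 CPM in non-arterial gated cells, against 318 and 494 CPM. It was higher by 3.05 ± 0.48 on the log2 scale (SE, adjusted p = 2.63e-07, edgeR). The level was higher in both sections, but section 1 gave a single count.

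Aplnr had 1 and 680 counts in non-arterial gated cells (579 and 9732 CPM), against 36 and 1116 in non-gated cells (544 and 1194 CPM). Its log2 change was 2.78 ± 0.47 (SE, adjusted p = 1.12e-06, edgeR), and in section 1 the groups were nearly level. Ptprb, the endothelial phosphatase VE-PTP that acts on Tie2 and VE-cadherin, had 1 and 100 counts in non-arterial gated cells, against 3 and 201 in non-gated cells. Its log2 change was 2.94 ± 0.55 (SE, adjusted p = 1.16e-05, edgeR).

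Notch4 had 3 and 297 counts in non-arterial gated cells (1737 and 4250 CPM), against 55 and 692 in non-gated cells (832 and 740 CPM), a log2 change of 2.39 ± 0.44 (SE, adjusted p = 9.23e-06, edgeR). Acvrl1, the receptor ALK1 for BMP9 and BMP10, had 5 and 206 counts in non-arterial gated cells (2895 and 2948 CPM), against 52 and 594 in non-gated cells (786 and 636 CPM). It was among the 6 genes called higher whose counting interval lay above 1 in section 1 alone, with a ratio of 3.68 there (1.15 to 9.15). Its log2 change over both sections was 2.26 ± 0.45 (SE, adjusted p = 2.67e-05, edgeR).

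Arhgap18 and Sema3g, a secreted class 3 semaphorin made by endothelium, were clear in both sections by size. Arhgap18 was 5.02 times higher in section 1 (2.08 to 10.5) and 3.25 times in section 2 (2.73 to 3.85), and Sema3g 6.09 times (2.32 to 13.6) and 2.51 times (2.00 to 3.12). By size alone, with at least 3 counts and at least 2-fold in each section, 4 genes were higher in both (Acvrl1, Arhgap18, Notch4 and Sema3g) and 1 was lower (Tox2). In section 2 alone, 17 of 285 genes were at least 2-fold higher by size (5.96%) and 20 at least 2-fold lower (7.02%). Pcdh17, a protocadherin, changed by 2.61 ± 0.50 on the log2 scale (SE, adjusted p = 1.17e-05, edgeR), and Col15a1, a basement-membrane-associated collagen, by 2.17 ± 0.56 (SE, adjusted p = 0.0028). In section 1 Pcdh17 had 2 counts, both in the 1 non-arterial gated cell with 10 or more gate counts. Gata4, a transcription factor of heart and endocardium, changed by 1.23 ± 0.40 (SE, adjusted p = 0.0318, edgeR).

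Another 4 genes were called higher with 0 counts in the 12 cells of section 1, so these calls come from section 2. They were Tll1, a secreted metalloprotease needed for heart septation, Sgk1, a serum- and glucocorticoid-regulated kinase, Edn1, the vasoconstrictor peptide endothelin-1, and Adgrg6, an adhesion G-protein-coupled receptor needed for heart development. Tll1 had 197 counts in section 2 non-arterial gated cells (2819 CPM), against 320 in non-gated cells (342 CPM). Vim, Ephb4 and H19 were also called higher, with changes of 0.82, 0.67 and 0.50 on the log2 scale. Tll1, Sgk1, Vim and H19 were named after their values were seen.

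H19, an imprinted non-coding RNA, moved with the area of the section. Cells were assigned to areas of low Gnas where Gnas gave under 1% of counts over the cell and its 30 nearest cells, and these areas held 35.9% of non-arterial gated cells of section 2, against 44.8% of non-gated cells. H19 was 1.17 times higher in non-arterial gated cells outside them (1.13 to 1.21), and the ratio within them was 0.984 (0.839 to 1.15). With a stricter gate of at least 5 counts and 3 genes the H19 change turned to -1.73 on the log2 scale, on 1 cell in section 1 and 107 in section 2.

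The 4 genes called lower were Vtn, the matrix protein vitronectin that is made by pericytes among other cells, Ptx3, a secreted pentraxin, Tox2, an HMG-box factor, and Prtg (protogenin), an immunoglobulin-superfamily protein of early embryonic tissue. Vtn had 0 and 30 counts in non-arterial gated cells, against 42 and 2276 in non-gated cells, a log2 change of -2.37 ± 0.56 (SE, adjusted p = 0.000757, edgeR). Prtg had 46 and 1377 counts in non-arterial gated cells (26636 and 19707 CPM), against 3253 and 30585 in non-gated cells (49192 and 32726 CPM), lower in both sections. Of the genes filled in by size in section 2, Lox, a collagen cross-linking enzyme, had a ratio of 0.166 (0.0449 to 0.428), Htra1 0.253, Pltp 0.312, Higd1b 0.319, Stra6 0.384 and C1qb 0.396, and none of them was called.

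Tissue position was handled in part, by pooling the 20 nearest non-gated cells of every non-arterial gated cell into 1 group per section. In section 2 this pool held 2534 of the 5977 non-gated cells, and no cell was compared with its own neighbours alone. In section 2 all 17 genes called higher had a counting interval above 1 against these neighbours, with ratios of 1.19 for H19, 4.79 for Notch4 and 6.52 for Tll1. The same non-arterial gated cells had chosen these genes, so this is a description, with no share over all genes beside it. Gata4 had a ratio of 1.27 against neighbours, against 1.96 over all non-gated cells. Of the 4 genes called lower, 3 had an interval below 1 against neighbours, and Vtn stood at 0.553 there, against 0.176 over all non-gated cells. In the edgeR fit with these neighbours 16 genes were higher and 0 lower, with 36 below an unadjusted p of 0.05, and 14 of the 21 genes called against all non-gated cells were still called.

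**Figure D2:**
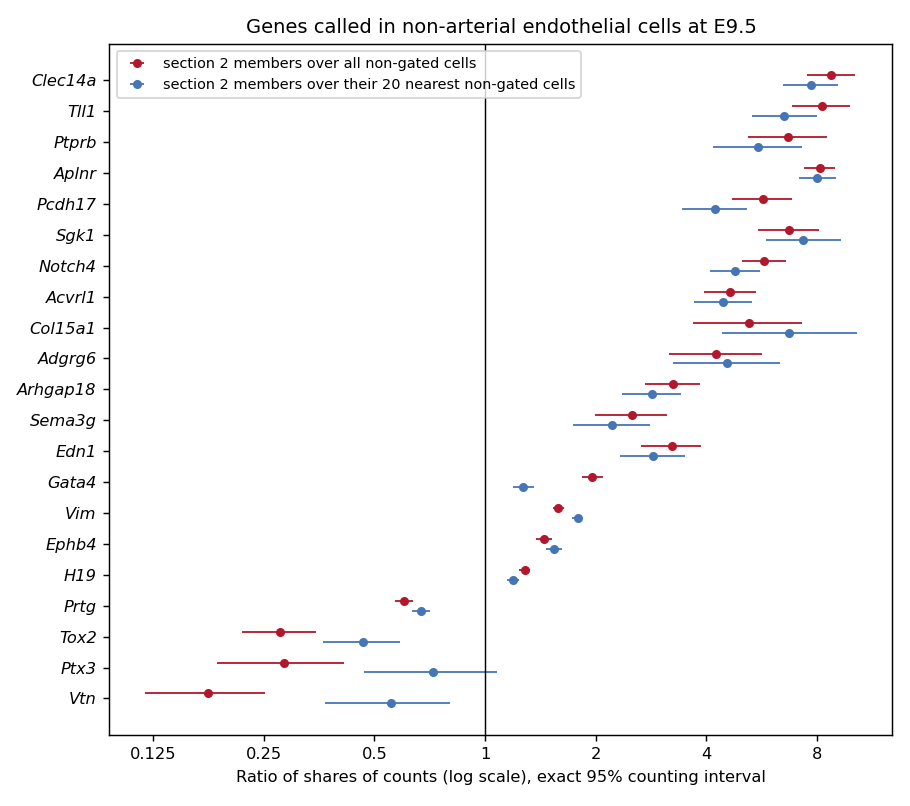
Ratio of shares of counts (log axis) for the 21 called genes in section 2, in non-arterial gated cells over all non-gated cells (red) and over their 20 nearest non-gated cells (blue), with exact 95% counting intervals. Clec14a stands at 8.74 over all non-gated cells, and Vtn at 0.176.

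The promoters of the called genes with the largest change that were above non-gated cells in each section and are held in the RefSeq promoter table are shown because these genes were higher together. Each sequence is the 250 bases before the gene's start, 5′ to 3′ on the gene's strand, in build GRCm38.p6. Capitals mark GGAAG and its reverse complement CTTCC, which hold the GGAA core bound by ETS factors such as Etv2. Clec14a lies on the minus strand at chr12:58269259-58269508, Pcdh17 on the plus strand at chr14:84443313-84443562 and Notch4 on the plus strand at chr17:34564045-34564294.
Clec14a: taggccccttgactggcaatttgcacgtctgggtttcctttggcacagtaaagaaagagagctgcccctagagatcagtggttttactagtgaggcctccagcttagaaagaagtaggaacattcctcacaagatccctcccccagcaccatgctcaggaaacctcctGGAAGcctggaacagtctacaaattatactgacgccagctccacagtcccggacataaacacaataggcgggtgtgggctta
Pcdh17: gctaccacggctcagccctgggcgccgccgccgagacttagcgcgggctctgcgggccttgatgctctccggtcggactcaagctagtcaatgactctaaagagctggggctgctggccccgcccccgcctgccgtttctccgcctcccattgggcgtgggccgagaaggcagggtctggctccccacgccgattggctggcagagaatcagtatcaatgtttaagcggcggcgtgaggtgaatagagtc
Notch4: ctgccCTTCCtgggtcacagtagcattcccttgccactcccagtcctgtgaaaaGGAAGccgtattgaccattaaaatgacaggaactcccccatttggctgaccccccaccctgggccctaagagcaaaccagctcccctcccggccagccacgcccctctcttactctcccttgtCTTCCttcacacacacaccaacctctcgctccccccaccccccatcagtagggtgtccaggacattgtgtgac

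Clec14a had 1 match, Pcdh17 0 and Notch4 3. Of 32851 promoters in the table, 64.1% held the same letters within these 250 bases, so a match is common. It describes the sequence only.

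The list counts below are to be read against the 5.94% of all 286 genes called higher and the 1.40% called lower, and most lists are small. Of 5 venous genes 2 were called higher, Aplnr and Ephb4, the receptor of ephrin-B2, while Nr2f2, Nrp2 and Vwf, the von Willebrand factor gene, were not called. Aplnr was called under 15 of 17 alternatives and Ephb4 under 3. The venous list had a median log2 change of 0.67, against -0.04 over all 286 genes. Of 20 arterial genes outside the rule 4 were called higher (Notch4, Acvrl1, Sema3g and Edn1), against 5.94% of all genes, with a list median of 0.51. Unc5b, a netrin receptor, had 6 and 518 counts in non-arterial gated cells and was not called, with a section 2 ratio of 1.19 and an adjusted p of 0.636 (edgeR).

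Of 6 endocardial genes 2 were called higher, Gata4 and Adgrg6, against 5.94% of all genes. Gata4 was called under 6 of 17 alternatives and Adgrg6 under 10. Npr3, a natriuretic peptide receptor, had 1 and 162 counts in non-arterial gated cells, against 52 and 1133 in non-gated cells, a ratio of 1.91 in section 2 and an adjusted p of 0.290 (edgeR). The cardiac factors Gata5, Tbx20 and Hand2 had section 2 ratios of 1.36, 1.30 and 1.02 and were not called. Of 8 capillary and tip genes 2 were called higher, Pcdh17 and Col15a1, and Col18a1, a basement membrane collagen, had a ratio of 1.18. Of 2 BMP-pathway genes Acvrl1 was called, and Tmem100, a target of that receptor, had a section 2 ratio of 2.26 (1.46 to 3.38) and an adjusted p of 0.311. Of 4 Notch-pathway genes 1 was called, Notch4, while Notch1 (ratio 1.03), Jag1 (1.08) and Heyl (0.817) were not.

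None of the 5 lymphatic, 8 brain endothelial, 5 liver sinusoidal, 2 VEGF-pathway or 11 proliferation genes was called in edgeR's test. Among lymphatic genes, Prox1, the lymphatic master factor, had a section 2 ratio of 1.37 and Vegfc, a lymphatic growth factor, 0.949. Of the brain list, the amino acid transporter gene Slc7a1 had a ratio of 0.967 and Itm2a 1.12, and of the liver list Oit3 had 1.49 and the scavenger receptor gene Stab2 1.66. The cell-cycle genes Aurka, Top2a, Birc5 (survivin) and Cdk1 had ratios of 0.839, 0.949, 0.780 and 0.848. Of the lineage pair, Sox17, an endothelial SRY-box factor, had 0 and 14 counts in non-arterial gated cells, against 12 and 126 in non-gated cells, and Etv2 belongs to the rule. Lin28a, an RNA-binding protein of early embryos, had a section 2 ratio of 0.606 and an adjusted p of 0.148 (edgeR).

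Markers of other cell types were read from lists too. Blood and macrophage genes summed to 2895 and 1775 CPM in non-arterial gated cells of sections 1 and 2, against 4763 and 2109 CPM in non-gated cells, with C1qb and Tyrobp at 0 counts in section 1. Erythroid genes (Car2 and Bpgm) summed to 2316 and 2590 CPM, against 4159 and 3769 CPM, with Car2 at 0 in section 1. Mural genes summed to 11581 and 16100 CPM, against 9451 and 17177 CPM, with Vtn at 0 in section 1, and mesenchyme genes to 23162 and 5725 CPM, against 14926 and 9069 CPM, with Foxd1 and Tcf15 at 0 in section 1. Heart muscle genes, which share Gata4, Gata5, Hand2 and Tbx20 with the endocardial list, summed to 11002 and 34047 CPM, against 8090 and 23095 CPM in non-gated cells, and to 31679 CPM in the 20 nearest neighbours in section 2.

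Neural genes summed to 3474 and 1674 CPM in non-arterial gated cells of sections 1 and 2, against 2556 and 2286 CPM in non-gated cells. The directions thus differed, and the section 1 value rests on 6 counts. Epithelial genes summed to 4053 and 3120 CPM, against 9784 and 5902 CPM. Outside Vtn and Gata4, no gene of these 7 lists was called. How much RNA of neighbouring cells was assigned to the gated cells by segmentation was not tested.

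Non-arterial gated cells of section 2 lay together. Of their 10 nearest kept cells 19.8% were gated on average, against 4.38% for non-gated cells, and the median distance to the nearest other non-arterial gated cell was 12.9 in the files' position unit, against 36.4. In section 1 none of the 10 nearest cells of the 12 cells was gated, against 1.47% for non-gated cells.

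On the map, one group of non-arterial gated cells ringed an open space. A circle of radius 150 around it was drawn after the map was seen, so its contents are a description. It held 55 non-arterial gated cells, 2 arterial-type cells and 294 non-gated cells, and 53 of the 55 passed the endocardial sub-rule described below. The ring carried much of the signal of section 2: 177 of the 197 Tll1 counts, 113 of the 165 Sgk1 counts, 212 of the 302 Clec14a counts and 96 of the 143 Edn1 counts came from these 55 cells.

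As levels, Tll1 stood at 9910 CPM in the ring and 385 CPM in the other 221 non-arterial gated cells, and at 1149 CPM in non-gated cells of the circle. Clec14a stood at 11870 CPM in the ring and 1730 CPM in the other non-arterial gated cells, and Cdh5 at 23292 and 5268 CPM. Cldn5 ran the other way, at 7783 CPM in the ring and 19994 CPM in the other non-arterial gated cells, as did Etv2, at 336 and 2711 CPM. Heyl, a Notch target, had 1 count in the ring and 180 in the other cells.

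Nr2f2 was at 6103 CPM in the ring and 2211 CPM in the other non-arterial gated cells, but non-gated cells of the circle had 8086 CPM. Gata4 was likewise at 36730 CPM in the ring and 8190 CPM elsewhere among non-arterial gated cells, against 45779 CPM in non-gated cells of the circle. For these factors the ring was thus no higher than the tissue around it. Klf4, a flow-responsive factor of endothelium, had 24 counts in the ring, 25 in the other non-arterial gated cells and 2 in non-gated cells of the circle.

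Outside the circle, the remaining 221 cells were still above non-gated cells for most of the called genes. Of the 17 genes called higher, 16 had a counting interval above 1 there and 11 were at least 2-fold higher. These genes were called from sums that include the 221 cells, so these counts are a description. The share over all genes was not counted beside them. Aplnr was 6.52 times higher (5.81 to 7.31), Pcdh17 6.49 times (5.03 to 8.32), Notch4 4.61 times (3.89 to 5.43) and Clec14a 3.54 times (2.79 to 4.45). Tll1 was the exception, with 20 counts and a ratio of 1.38 (0.826 to 2.17). Refitted without the circle, edgeR called 15 genes higher and 12 lower. Tll1 had a log2 change of 0.44 in that fit, Edn1 0.61, Gata4 0.88 and Ephb4 0.43, and these 4 were no longer called.

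**Figure D3:**
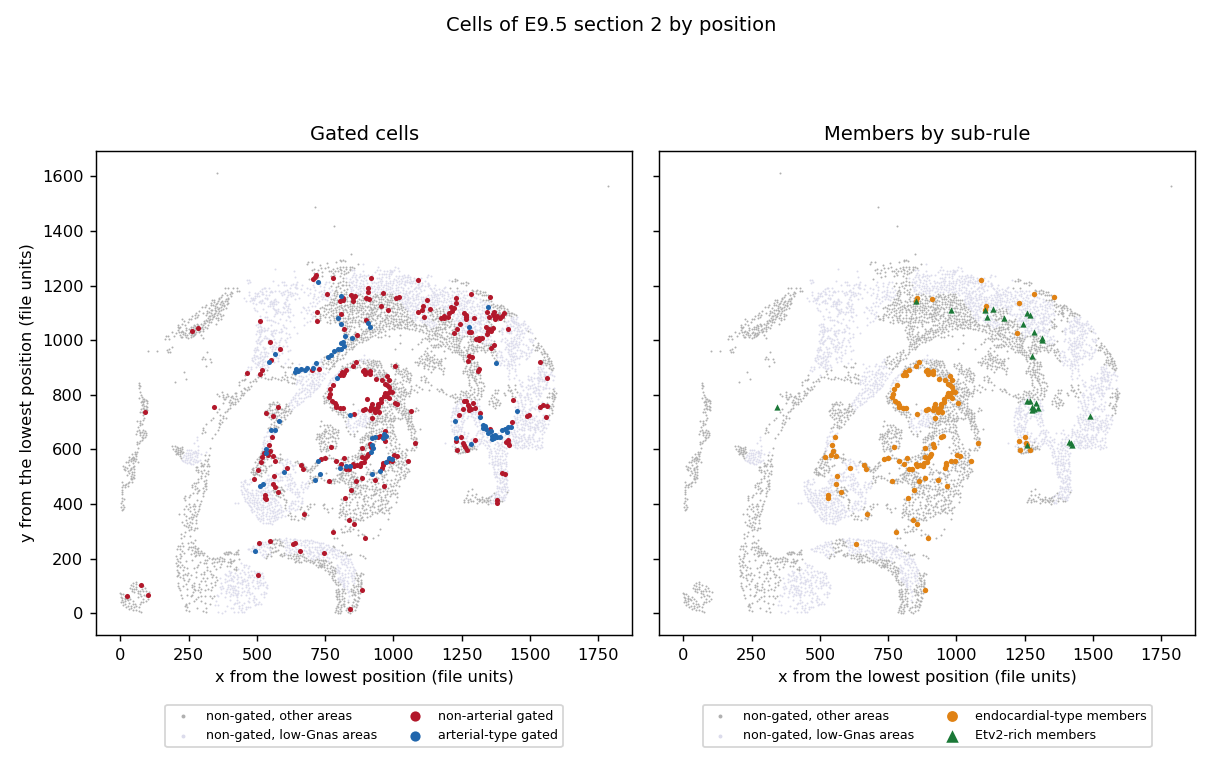
Position of the kept cells of E9.5 section 2 (both axes in the files' position unit, from the lowest value): on the left non-arterial gated cells (red) and arterial-type cells (blue), on the right non-arterial gated cells passing the endocardial (orange) and Etv2-rich (green) sub-rules, over non-gated cells in grey. A ring of 55 non-arterial cells surrounds an open space near the middle of the map. Light grey marks areas of low Gnas, and members in the legend are non-arterial gated cells.

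Sub-rules described how the non-arterial gated cells varied, and a cell could pass several. The venous sub-rule asked for at least 2 counts and 2 genes of Nr2f2, Nrp2, Ephb4 and Aplnr, and 171 of 276 cells in section 2 passed (62.0%, 55.9 to 67.7%), against 1902 of 5977 non-gated cells (31.8%). After thinning each cell to 50 counts the share was 30.6% (25.1 to 36.5%) of non-arterial gated cells, 12.7% of arterial-type cells and 12.7% of non-gated cells. In the cells that passed, Aplnr stood at 9.20 times its level in the nearest non-gated cells and Ephb4 at 1.73 times, while Nr2f2 stood at 1.31 (1.13 to 1.51) and Nrp2 at 1.06 (0.865 to 1.29). These 4 genes chose the cells, so the ratios are a description. In section 1, 2 of 12 non-arterial gated cells passed the venous sub-rule, against 9.42% of non-gated cells. After thinning, 0 of 10 passed there, against 3.125% of non-gated cells.

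The endocardial sub-rule asked the same of Hand2, Gata4, Gata5, Tbx20, Npr3 and Adgrg6. In section 2, 129 non-arterial gated cells passed (46.7%, 40.7 to 52.8%), against 22.7% of non-gated cells. After thinning, the shares were 27.2% of non-arterial gated cells, 29.1% of arterial-type cells and 15.6% of non-gated cells. The cells that passed were 7.37 times above their nearest non-gated cells for Tll1 (5.84 to 9.32), 6.98 times for Adgrg6, 7.01 times for Sgk1, 3.68 times for Edn1 and 10.5 times for Clec14a. Much of this came from the ring, which held 53 of the 129 cells. The 129 cells had 178 Tll1, 139 Sgk1, 134 Edn1 and 244 Clec14a counts, and the 55 ring cells 177, 113, 96 and 212. Adgrg6 was spread wider, with 58 counts in the 129 cells and 21 in the ring. The muscle and mesoderm genes Acta2 (0.826), Hand2 (0.837), Gata5 (0.870) and Tbx20 (0.912) were not above the nearest non-gated cells, and Gata4 stood at 1.11 (1.03 to 1.19). Acta2 was still at 15045 CPM in the cells that passed, against 151 CPM in the other 147 non-arterial gated cells. Of the Acta2 counts of non-arterial gated cells, 63 lay in the ring and 593 outside it. The sub-rule takes its name from its genes, and whether the cells that passed were endocardium or heart muscle was not tested. Adgrg6, Hand2, Gata4, Gata5 and Tbx20 belong to the sub-rule, so their values are set in part by it. In section 1, 2 of 12 non-arterial gated cells passed, against 8.08% of non-gated cells. After thinning, 0 of 10 passed there, against 3.33% of non-gated cells.

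The Etv2-rich sub-rule, at least 2 Etv2 counts, held 26 cells of section 2 (9.42%, 6.25 to 13.5%), and none in section 1. Only 5 of 5977 non-gated cells passed, but Etv2 is a gate gene, so the rule itself moves such cells into the gate. These cells had 102 Etv2 counts and 298 Cldn5 counts, but 0 Pecam1, 5 Cdh5 and 14 Kdr counts, so they entered the gate mainly through Cldn5 and Etv2. The other 250 cells had 45 Etv2, 881 Cldn5, 350 Pecam1, 685 Cdh5 and 395 Kdr counts. Aplnr, with 82 counts, was 4.48 times above the nearest non-gated cells, and Foxf1, a forkhead factor of lateral mesoderm, 2.10 times (1.58 to 2.77). Gata4 and Acta2 had 1 count each.

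Of the Etv2-rich cells, 76.9% lay in areas of low Gnas, against 35.9% of all non-arterial gated cells of section 2. Gate genes differed between these areas among non-gated cells as well. Pecam1 was at 1969 CPM in non-arterial gated cells inside the areas and 6211 CPM outside, and at 80.9 and 272 CPM in non-gated cells. Cldn5 was at 32717 and 10605 CPM in non-arterial gated cells, and at 2568 and 636 CPM in non-gated cells. Whether the areas set the profile of the Etv2-rich cells was not tested.

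The cycling sub-rule used 7 cell-cycle genes, among them Cdk1, Aurka and Top2a, with the same limits. Unthinned, 82.6% of non-arterial gated cells of section 2 passed, against 66.7% of arterial-type and 72.4% of non-gated cells. After thinning, 50.2% of non-arterial gated cells passed (44.0 to 56.4%), against 25.3% of arterial-type cells (16.2 to 36.4%) and 57.3% of non-gated cells (55.9 to 58.7%). The direction against non-gated cells thus turned with thinning. Thinning also dropped cells under 50 counts outside the rule, keeping 265 of 276 non-arterial gated and 4708 of 5977 non-gated cells. Depth and this choice of cells were not told apart. The cells that passed none of the 4 sub-rules numbered 21 in section 2.

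**Figure D4:**
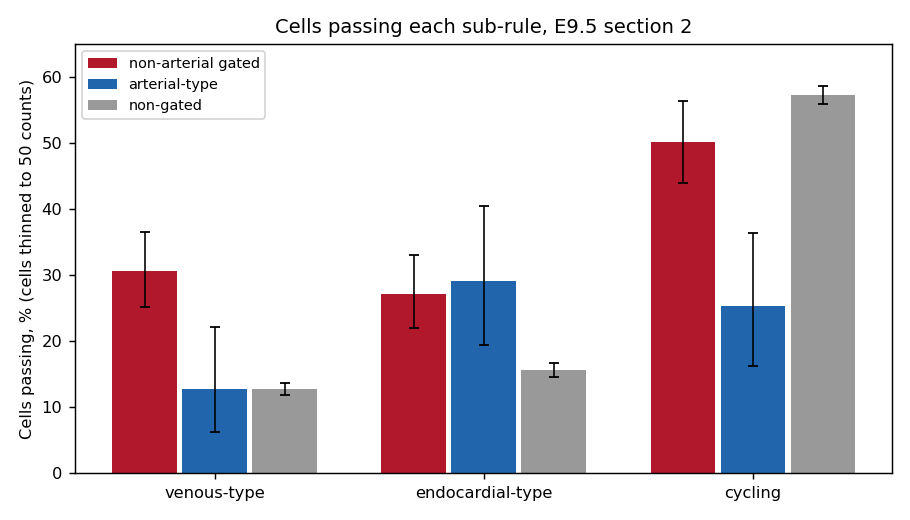
Share of cells of E9.5 section 2 passing each sub-rule after thinning to 50 counts (percent of cells with at least 50 counts outside the rule), for non-arterial gated, arterial-type and non-gated cells, with exact 95% counting intervals. The venous sub-rule passes 30.6% of non-arterial gated cells and 12.7% of both other groups.

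Arterial-type cells were the closest comparison, and the question was what differs between the arms of the endothelium beyond the 3 genes that split them. Section 1 held 1 arterial-type cell, so this is a description of section 2 with no test. Of 186 genes with at least 50 counts in both sums together, 34 were at least 2-fold higher in non-arterial than in arterial-type cells (18.3%) and 18 at least 2-fold lower (9.68%), with a counting interval that excluded 1.

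The 10 lowest included known arterial and Notch-related genes. Notch4 stood at 4250 CPM in non-arterial cells and 14545 CPM in arterial-type cells (ratio 0.292, 0.248 to 0.344), and Sema3g at 1374 and 4687 CPM (0.293). Depp1, a FOXO-regulated gene, had 24 and 73 counts (ratio 0.0974, 0.0587 to 0.156), and Gpr182, an atypical chemokine receptor of endothelium, 52 and 107 (0.144). Tmem100 (0.159), Nkx2-3 (0.166), Adgrg6 (0.231), Mecom (0.253), Ltbp4 (0.264) and Vegfc (0.286) complete the 10.

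Of all 186 genes, 18.3% were at least 2-fold higher in non-arterial cells and 9.68% lower, and the list counts are to be read against these shares. Of the 20 arterial genes outside the rule, 15 had enough counts, and 7 of them were at least 2-fold lower in non-arterial cells and 1 higher. Of the 5 venous genes, 3 were at least 2-fold higher in non-arterial cells and 1 lower. Nr2f2 was at 3206 CPM in non-arterial cells and 1160 CPM in arterial-type cells (ratio 2.76, 1.81 to 4.41), Nrp2 at 1746 and 628 CPM (2.78, 1.57 to 5.37) and Aplnr at 9732 and 4397 CPM (2.21, 1.78 to 2.79). Ephb4 had a ratio of 1.11 (1.01 to 1.23) and Vwf 0.351 (0.223 to 0.555). Nr2f2 and Nrp2 thus stood above arterial-type cells by size, with ratios of 1.15 and 1.04 over non-gated cells. The circle around the ring held 55 of the non-arterial but 2 of the arterial-type cells. In the other 221 non-arterial cells Nr2f2 stood at 2211 CPM, Aplnr at 8055 CPM and Nrp2 at 1769 CPM. Without the ring cells, Nr2f2 and Aplnr were thus under 2-fold above the arterial-type levels.

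The highest ratios belonged to genes of several roles. Car2, carbonic anhydrase 2 of red cells and other tissues, had 63 counts in non-arterial and 2 in arterial-type cells (9.33, 2.48 to 78.7). Crabp1, a retinoic-acid-binding protein, had a ratio of 4.51, Dlk1, a secreted and membrane growth regulator, 3.26, Sfrp2, a Wnt modulator, 3.36, and Col1a2, a collagen chain, 3.11. Of 11 proliferation genes 2 were at least 2-fold higher in non-arterial cells, Birc5 (2.25) and H2afz (2.32), a share near the 18.3% over all genes. All genes tested had a median ratio of 1.19, so a gene near that value did not move relative to the rest.

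At E15.5 the same comparison, with 10870 non-arterial and 965 arterial-type cells of 1 section, gave ratios of 0.370 for Notch4, 0.218 for Sema3g and 0.258 for Depp1, and of 1.39 for Nr2f2, 1.60 for Nrp2 and 1.91 for Aplnr. Gpr182 (1.05) and Adgrg6 (1.10) were near level there. The difference between the stages was not tested.

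**Figure D5:**
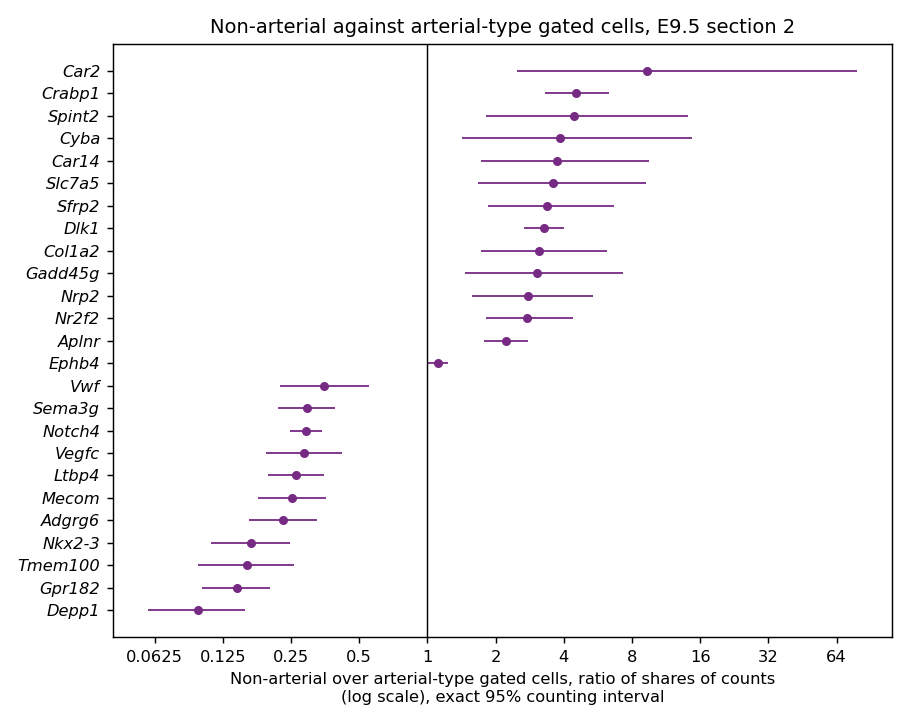
Ratio of shares of counts (log axis) in non-arterial over arterial-type gated cells of E9.5 section 2, for the 10 highest and 10 lowest genes outside the rule and the venous list, with exact 95% counting intervals. Nr2f2, Nrp2 and Aplnr lie above 2, and Notch4 and Sema3g below 0.3.

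The stage comparison set the E15.5 non-arterial gated cells against those of E9.5 and asked which genes changed with development. Of 287 genes tested, 0 were higher (0%) and 0 lower (0%) in edgeR's quasi-likelihood test, with 29 below an unadjusted p of 0.05 and 13 by DESeq2, which also called 0 after adjustment. There was 1 section at E15.5, so the spread came from the unequal E9.5 sections, and what is particular to that section and the stage cannot be told apart.

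By size against section 2, the lowest genes at E15.5 were Lin28a at 285 CPM, against 12107 CPM at E9.5 (ratio 0.0236), and Prtg at 753 CPM, against 19707 CPM (0.0382). Gata4 (0.0418), Gata5 (0.114), Tbx20 (0.156), Acta2 (0.168), Edn1 (0.188) and Tll1 (0.207) were also far lower. The Tll1 ratio rests on the ring: the level at E15.5 was 585 CPM, against 2819 CPM in all non-arterial gated cells of section 2 and 385 CPM in the 221 cells outside the circle. The highest included genes of matrix and nerve, Lox (58.4), Stmn2 (42.8) and Dcn (17.2), and the blood-brain-barrier transporter gene Slc38a5 (10.3). Adjusted p for these genes lay between 0.350 and 0.726 (edgeR), so none was called.

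Whether a gene's stage difference in non-arterial cells differed from that in non-gated cells was tested as an interaction. Of 287 genes, 2 were higher (0.697%) and 1 lower (0.348%) after adjustment, with 33 below an unadjusted p of 0.05. On simulated counts this fit made more false calls than its threshold allows, so these 3 genes carry that limit. Vtn had a ratio of non-arterial to non-gated cells of 3.66 at E15.5 and 0.176 in E9.5 section 2 (interaction 4.30 ± 0.90 on the log2 scale, SE, adjusted p = 0.000797, edgeR). The 8 mural genes, Vtn among them, summed to 14740 CPM in non-arterial gated cells at E15.5 and 16100 CPM in section 2, of which Acta2 gave 1575 CPM at E15.5 and 9388 CPM in section 2. Their median stage difference was 0.74 on the log2 scale, with Rgs5 at 4012 CPM at E15.5 and 1703 CPM in section 2, and their part in the Vtn result was not tested. Tc2n, a tandem C2-domain gene, had ratios of 2.12 and 0.485 (2.10 ± 0.57, SE, adjusted p = 0.0231, edgeR).

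Tll1 had ratios of 0.880 at E15.5 and 8.23 in E9.5 section 2 (interaction -3.04 ± 0.80, SE, adjusted p = 0.0231, edgeR). Without the circle around the ring the Tll1 interaction was -0.66, with an adjusted p of 0.565. Among the genes called higher at E9.5, non-arterial cells at E15.5 were again above non-gated cells for Aplnr (17.9 times), Ptprb (6.33 times), Notch4 (5.55 times), Acvrl1 (4.71 times) and Clec14a (4.59 times), while Pcdh17 had a ratio of 1.12 and Adgrg6 of 0.792. The interactions of Pcdh17 and Adgrg6 were not called, with adjusted p of 0.106 and 0.152 (edgeR).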

How the data were processed

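The counts are decoded RNA molecules per segmented cell and gene, as deposited by the authors, with no normalization. Cell volume (a signal value) and the DAPI and PolyT stain intensity per cell are also as deposited by the authors. Scanpy and Seurat are named in the submitters' processing notes without a role, and no label or header gives the settings of the segmentation. Cells with at least 10 counts over the genes were kept. The members, gene lists, sub-rules and tests were chosen with earlier results of these data known.

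Counts were summed per section and class without the 9 rule genes. Genes reaching 30 counts over the sums of a fit were tested with edgeR 4.0.16 (R 4.3.3; TMM, glmQLFit, glmQLFTest, Benjamini-Hochberg), with the section as a block between classes of the same section, since both classes come from the same tissue. The SE of an edgeR log2 change was its absolute value over the square root of the quasi-likelihood F. DESeq2 1.42.0 was an alternative. Ratios are shares of counts with exact 95% intervals. Descriptions by size needed at least 50 counts in both sums together, 2-fold and an interval without 1.

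Named genes were up to 10 per direction with the largest log2 change among called genes with the same direction in each E9.5 section, filled by size in section 2, plus the rule genes, the venous, endocardial and lineage lists, and 2 to 4 genes of each other list by count. On simulated counts the stage and interaction fits called more unchanged genes than their threshold allows. Doublets were not called, since a segmented cell can take in molecules of its neighbours.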

Additional observations from a re-analysis of the deposited data

Results flagged for a closer look

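For 3 genes the difference between E15.5 and E9.5 was not the same in non-arterial gated cells as in non-gated cells, by the interaction term of edgeR's quasi-likelihood test (adjusted p of 0.000797 for Vtn and 0.0231 for Tll1 and Tc2n). Vtn had a stage difference larger by 4.30 on the log2 scale in non-arterial gated cells, and it was called under 12 of 14 alternatives. Tll1 had a stage difference of -3.04 relative to non-gated cells and was called under 8 of 14, and Tc2n one of 2.10, called under 7 of 14. All 3 genes had 0 counts in the 12 non-arterial gated cells of section 1, and Tc2n had 7 in section 2. With 1 section at E15.5, section and stage cannot be told apart.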

How the results depend on the processing

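Against non-gated cells, where edgeR called 17 genes higher and 4 lower with the section as a replicate block, the counts were 0 and 0 with no replicate block and 0 and 0 by DESeq2. They were 10 higher with library size alone, 11 with the blank level subtracted, 9 and 0 lower after thinning, 10 and 2 without areas of low Gnas, and 8 and 1 with cells of 0 arterial rule counts. Genes called lower numbered 8 with at least 20 counts per cell, 7 with the stricter gate, 0 against the 20 nearest cells and 12 without the circle. Of the 21 called genes, H19 reversed, to -1.73 with the stricter gate, and the other 20 kept their direction in all 17 alternatives. The calls themselves held less well. They ranged from 15 of 17 alternatives for Clec14a, Ptprb, Aplnr, Pcdh17 and Sgk1 to 3 for Ephb4, with 6 for Gata4 and Ptx3 and 7 for H19. The cause of these changes was not tested. The 20 nearest cells, Cldn5 left out of the gate, adjusted dispersions and the circle were chosen after seeing the data.

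For stage, where 0 genes were called, 1 was higher and 2 lower with library size alone, 12 and 1 with the stricter gate, 6 and 3 with the blank level subtracted, 1 and 1 after thinning, 4 higher without Cldn5 in the gate and 1 lower without the circle. For the interaction (2 higher, 1 lower) the counts were 4 and 2 by DESeq2, 5 and 7 with upper-quartile factors, 11 and 4 with library size alone, 1 and 0 with the stricter gate, 5 higher without large cells, and 11 and 4 with the blank level subtracted. They were 6 and 2 after thinning, 1 and 0 without areas of low Gnas, without Cldn5 and with adjusted dispersions, and 7 and 3 without the circle.

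Leaving out a section leaves no residual degrees of freedom, so those values are counts by size with no test. Against non-gated cells they ranged from 8 to 17 higher and 10 to 20 lower. For stage the range was 31 to 84 higher and 63 to 145 lower, and for the interaction 20 to 47 higher and 14 to 136 lower. Genes past the fold in both sections (4 higher, 1 lower) numbered 2 and 0 at 3-fold, 2 and 0 after thinning, 0 lower without areas of low Gnas or against the nearest cells, and 1 and 2 without Cldn5; in single sections they ranged from 8 to 17 and 10 to 20. Against arterial-type cells 13 were higher and 6 lower after thinning. With 1 arterial-type cell in section 1, the tests, the fit with no replicate block and the values without section 2 were not run for that comparison.

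The share of kept cells that were non-arterial gated in section 1 was 0.120% with the stricter gate and 0.241% without Cldn5. In section 2 it was 1.69% with the stricter gate, 2.79% with 0 arterial rule counts, 5.04% without areas of low Gnas, 3.71% without Etv2 and 2.60% without Cldn5. The 1727 counts of the 12 cells in section 1 limit every test.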
